A study of Homo sapiens with 4 samples.

Results

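The IFIT family (interferon-induced proteins with tetratricopeptide repeats) was described here as 5 human genes, IFIT1, IFIT2, IFIT3, IFIT5 and IFIT1B, chosen by their symbols in a table of transcript counts. The members are 5 of 57820 genes and 8 of 196520 transcript entries, and 4 of the genes and 6 of the entries had at least 1 count. The cells were SK-N-SH, an established human neuroblastoma line grown in DMEM with fetal bovine serum. Cells of 2 libraries were transduced with a lentivirus from which the EF1a promoter drives the lncRNA RP5-998N21.4 (OE). Cells of the other 2 libraries were transduced with the same kind of lentivirus with no insert (vector control), so both conditions carried a virus. The control libraries are titled WT and given a wild type genotype in the labels, while their treatment label names the empty vector. No label says whether replicates came from separate transductions, so the p-values measure only the spread between these libraries, which may be technical. The study asked whether RP5-998N21.4 acts on IFIT2 and IFIT3, which it singled out with these libraries, so that their values here are not independent evidence of a direction.

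IFIT proteins are cytosolic proteins built of repeated helical pairs. They are nearly absent from many resting cells and are made after interferon or virus, when the transcription factor complex ISGF3 binds interferon-stimulated response elements upstream of their genes. IFIT1 binds RNA whose cap lacks ribose methylation and blocks its translation. IFIT3 binds and stabilizes IFIT1, IFIT2 is an RNA-binding partner that can join the same complex, and IFIT5 binds RNA that carries a triphosphate end without needing a partner. IFIT1B is a close paralog of IFIT1 that is less well understood.

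All members lie on the plus strand of chromosome 10 within 118952 bases. In the order of the chromosome (GRCh37) they are IFIT2 (chr10:91061803-91069028), IFIT3 (chr10:91087754-91100728), IFIT1B (chr10:91137813-91144962), IFIT1 (chr10:91152303-91166244) and IFIT5 (chr10:91174325-91180754). Every listed member has a short first exon, which carries the start codon or none of the coding sequence, and a long last exon with nearly all of it. IFIT3 and IFIT1 are each listed with 2 transcripts that had counts, and these differ almost only at their starts. The IFIT3 transcripts ENST00000371818 and ENST00000371811 begin 4487 bases apart, with first exons of 82 and 144 bases, and share 2308 bases of their last exon. Both code for 1470 bases. The IFIT1 transcripts ENST00000371804 and ENST00000546318 share 4301 bases. ENST00000546318 has 312 bases of its own, most of them in an added middle exon of 235 bases, and ENST00000371804 has 1 base of its own. A read from the shared exons therefore cannot tell these transcripts apart, and a read is particular to ENST00000371804 only if it crosses its splice junction or holds that last base.

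The plot of the transcript models shows these differences at scale.

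**Figure D1:**
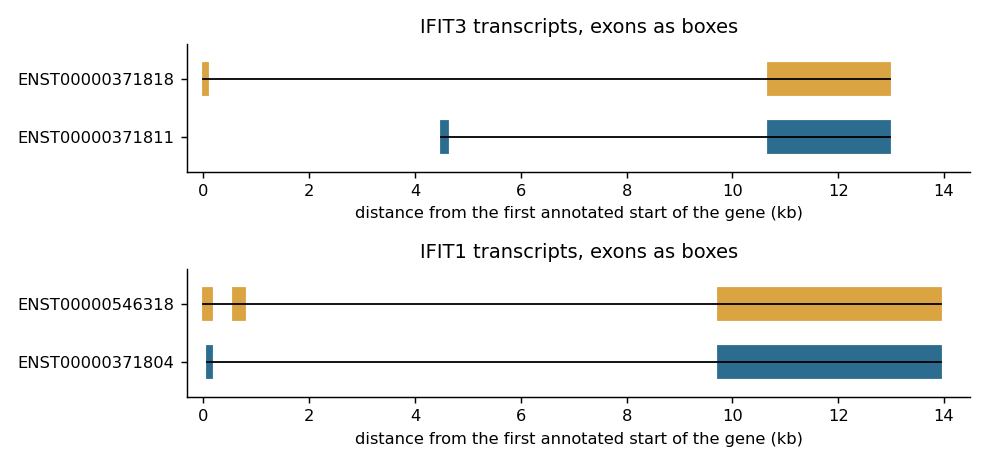
Exons of the transcripts of IFIT3 (top) and IFIT1 (bottom) that had counts, drawn as boxes on a line in kb from the first annotated start of each gene. The last exons coincide, and the 2 IFIT3 starts lie 4487 bases apart.

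The upstream sequences of these starts are shown because the 2 IFIT3 transcripts, whose counts moved between libraries, would be made from different starts, and because the response elements of this family lie there. RefSeq promoters (GRCh38.p14, 250 bases before each start) were found for 4 of the 5 members, with 2 entries for IFIT3. Each matched GRCh37 exactly once, and those positions are given. Capitals mark GAAANNGAAA, the core of an interferon-stimulated response element, searched on both strands. Bases inside an annotated first exon are left out, except the last 4 of the second IFIT3 window, which finish a match.
IFIT3 upstream of ENST00000371818 (chr10:91087504-91087753, plus strand): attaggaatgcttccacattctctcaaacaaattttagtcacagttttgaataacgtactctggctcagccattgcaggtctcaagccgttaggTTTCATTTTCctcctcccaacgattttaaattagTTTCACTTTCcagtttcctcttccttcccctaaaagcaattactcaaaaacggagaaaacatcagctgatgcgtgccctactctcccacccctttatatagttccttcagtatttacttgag
IFIT3 upstream of ENST00000371811 (chr10:91092036-91092244, plus strand): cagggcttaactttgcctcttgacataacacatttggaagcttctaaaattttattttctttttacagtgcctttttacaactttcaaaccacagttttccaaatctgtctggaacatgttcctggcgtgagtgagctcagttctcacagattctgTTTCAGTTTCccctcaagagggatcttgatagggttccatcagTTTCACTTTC
IFIT1 (chr10:91152130-91152302, plus strand): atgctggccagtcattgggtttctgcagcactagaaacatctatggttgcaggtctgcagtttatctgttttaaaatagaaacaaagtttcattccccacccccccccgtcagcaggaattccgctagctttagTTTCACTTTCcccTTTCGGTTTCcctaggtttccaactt
IFIT5 (chr10:91174075-91174324, plus strand): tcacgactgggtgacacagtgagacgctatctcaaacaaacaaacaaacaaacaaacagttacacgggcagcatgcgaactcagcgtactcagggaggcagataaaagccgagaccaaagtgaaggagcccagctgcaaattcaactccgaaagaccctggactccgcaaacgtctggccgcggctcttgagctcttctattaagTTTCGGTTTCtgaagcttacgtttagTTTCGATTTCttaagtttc

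Each of these 4 windows held 2 matches, all of them read as TTTCNNTTTC on the plus strand, and the IFIT1B window held 0. Of 35116 promoters in the table, 3.02% held at least 1 match and 0.225% at least 2 within the same 250 bases. The letters TTTCACTTTC occurred upstream of both IFIT3 starts and of IFIT1. In IFIT3 the matches began 156 and 122 bases before the first RefSeq start and 94 and 51 bases before the second. That second RefSeq start lies 45 bases downstream of the start of ENST00000371811. Both matches are therefore nearer to the start of that transcript, and the last 4 bases of the nearer one lie inside its first exon. In IFIT1 they began 116 and 103 bases before the RefSeq start, which is that of ENST00000371804 (base 91152380) and lies within the first exon of ENST00000546318, and in IFIT5 they began 45 and 19 bases before it. Among the 35 other interferon-stimulated genes of a fixed list, 29 had a promoter in the table and 19 of those held a match. A match is a description of the letters and no measure of binding.

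The labels were checked first with the overexpressed gene, which had 32 and 33 counts with the empty vector and 2407 and 2808 with OE. Library totals ran from 23785164 to 28307591 counts. Of 7 adrenergic neuroblastoma markers, 6 were detected, and the summed level of the 7 was 360 and 430 CPM (counts per 1000000 of the TMM-scaled library size) in the vector control and 673 and 640 CPM in OE. The 5 mesenchymal markers summed to 1489 and 1507 CPM in the vector control and to 2217 and 1246 CPM in OE. The high sum of the first OE library was carried by VIM, the vimentin gene, at 348 and 350 CPM with the empty vector and 1254 and 376 CPM with OE. PRRX1, SNAI2 and YAP1 each had both OE libraries below both vector control libraries, with an unadjusted p under 0.05 by edgeR (all genes, 10.7% lower), and FN1 overlapped between the conditions. Of 7 markers of blood, epithelial, liver, glial or endothelial cells in the table, 3 were at 0 in every library and their sum was from 1.32 to 3.11 CPM. The adrenergic sum was thus higher in both OE libraries, as the IFIT genes were, and 3 of the 5 mesenchymal markers were lower, and the part of either in the IFIT values was not tested. In bulk RNA, more cells with a transcript and more of it per cell cannot be told apart.

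The 4 detected IFIT genes were each higher in both OE libraries than in both vector control libraries, by 1.20-fold to 2.52-fold. The difference was largest in IFIT1, followed by IFIT3, IFIT2 and IFIT5, on the log2 scale from 1.33 to 0.27. Over all 20528 genes tested, 27.8% had both OE libraries above both vector control libraries. With edgeR's quasi-likelihood test, 0 members and 0 genes in all (0% of those tested) passed the threshold of an adjusted p under 0.01 with an absolute log2 fold change above 0.5. At an unadjusted p under 0.05 there were 4269 genes of either direction, and 3 of the 4 members (IFIT1, IFIT2 and IFIT3) were higher against 10.1% of all genes. DESeq2 called 1800 genes at the same thresholds, and 3 of the 4 members were called higher (the same 3) against 4.35% of all genes. Which members passed thus depended on the tool, while the order of the libraries is a property of the counts. With 2 libraries against 2, an exact permutation test of a single gene cannot reach a p of 0.05.

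IFIT1, the sensor of caps that lack ribose methylation, had 252 and 177 counts with the empty vector and 618 and 624 with OE. In CPM scaled by the TMM method these were 10.8, 7.53, 24.6 and 21.6. The groups did not overlap, and the vector control libraries differed from each other more, relative to their level, than those of any other member. The mean of the vector control libraries was 9.18 ± 2.33 CPM and that of the OE libraries 23.1 ± 2.16 CPM (SD, n = 2 each), a log2 fold change of 1.33 (SE 0.232, adjusted p = 0.105 by edgeR, 4.02e-06 by DESeq2). Of all genes tested, 3.31% were higher in OE by at least this fold, and 5.31% had an unadjusted p as small. Without the first vector control library the log2 fold change was 1.61, and without the second it was 1.09.

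IFIT3, the partner that stabilizes IFIT1, had 790 and 761 counts with the empty vector and 1622 and 1882 with OE. Its CPM values were 33.9, 32.4, 64.6 and 65.1, so replicates lay close together and the groups far apart. The log2 fold change was 0.97 (SE 0.0883, adjusted p = 0.0615 by edgeR, 1.28e-26 by DESeq2). It had the smallest unadjusted p of the family, and 0.882% of all genes had one as small, while 6.49% were higher in OE by at least this fold.

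IFIT2, the RNA-binding partner, had 354 and 372 counts with the empty vector and 552 and 654 with OE. Its CPM values were 15.2, 15.8, 22.0 and 22.6. Its groups did not overlap, and the step between them was smaller than in IFIT1 and IFIT3. The log2 fold change was 0.52 (SE 0.106, adjusted p = 0.124 by edgeR, 0.000187 by DESeq2). By fold, 15.6% of all genes tested were at least as much higher in OE, and 7.55% had an unadjusted p as small.

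IFIT5, the member that works alone on triphosphate RNA, had 1358 and 1216 counts with the empty vector and 1623 and 1959 with OE. Its CPM values were 58.3, 51.8, 64.7 and 67.7, which do not overlap between conditions, although the gap between them is smaller than the distance between the vector control libraries. The log2 fold change was 0.27 (SE 0.106, adjusted p = 0.278 by edgeR, 0.0859 by DESeq2), and IFIT5 passed neither test. Of all genes tested, 27.9% were higher in OE by at least this fold, and 25.3% had an unadjusted p as small. IFIT1B, the paralog between IFIT3 and IFIT1, had 0 counts in every library. The limit that 0 counts allows (3 counts) was at most 0.0653 CPM per kb for IFIT1B.

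**Figure D2:**
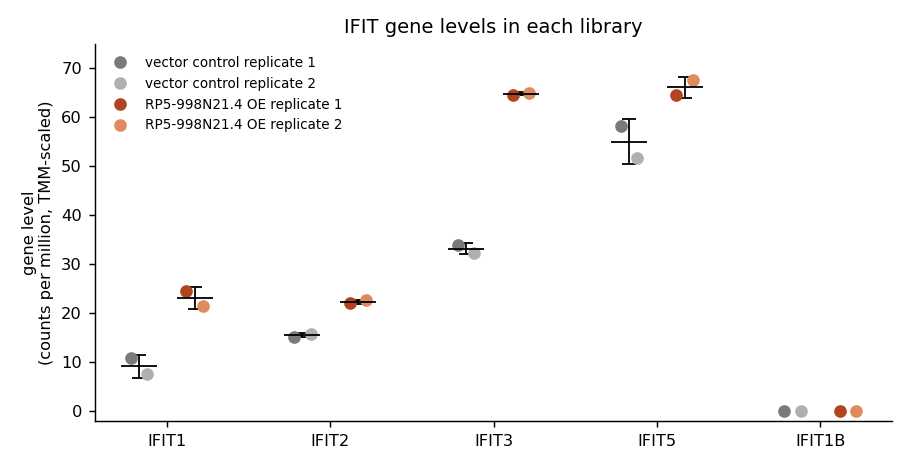
Level of each IFIT gene in CPM (TMM-scaled), 1 point per library, with the mean and SD of the 2 libraries of each condition as a bar and whiskers. Both OE points lie above both vector control points in IFIT1, IFIT2, IFIT3 and IFIT5, and IFIT1B is at 0.

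To compare the members with each other, counts were divided by the length of the transcript they were assigned to and by library size. In the vector control, IFIT3 was at 13.8 ± 0.594 (SD, n = 2) and IFIT5 at 13.7 ± 1.15 (SD, n = 2) CPM per kb, with overlapping libraries, so that these neighbours did not differ beyond their spread. IFIT2 was at 4.57 ± 0.131 and IFIT1 at 2.07 ± 0.624 on this scale (SD, n = 2 each). In OE the order was IFIT3 at 26.4 ± 0.122, IFIT5 at 16.4 ± 0.535, IFIT2 at 6.57 ± 0.127 and IFIT1 at 5.20 ± 0.741 CPM per kb (SD, n = 2 each). No libraries of neighbouring members overlapped in OE. IFIT3 and IFIT5, which overlapped in the vector control, were thus apart in OE, and IFIT2 lay above IFIT1 in both conditions.

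Ratios of counts within a library do not depend on library size. The ratio of IFIT3 to IFIT5 counts was 0.582 and 0.626 in the vector control and 0.999 and 0.961 in OE. The ratio of IFIT1 to IFIT5 was 0.186 and 0.146 in the vector control and 0.381 and 0.319 in OE. The ratio of IFIT2 to IFIT5 was 0.261 and 0.306 in the vector control and 0.340 and 0.334 in OE, the narrowest step of the 3. In each of these ratios the conditions did not overlap. IFIT5 had the smallest log2 fold change of the family, so higher mean ratios to it follow from the levels above and are no separate result. The share of such ratios over all genes was not computed. The ratio of IFIT3 to IFIT1 was 3.13 and 4.30 in the vector control and 2.62 and 3.02 in OE. The pair that forms the cap-binding complex therefore differed less in its ratio than in its levels, with a vector control spread (SD 0.823, n = 2) close to the difference of the means.

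The family summed to 118 and 108 CPM in the vector control and 176 and 177 CPM in OE. IFIT5 held 49.3% and 48.1% of the family's counts in the vector control and 36.8% and 38.3% in OE. IFIT3 held 28.7% and 30.1% in the vector control and 36.7% and 36.8% in OE. IFIT1 went from 9.15% and 7.01% to 14.0% and 12.2%, and IFIT2 stayed between 12.5% and 14.7% in all 4 libraries. IFIT5 thus led the family's counts in the vector control and stood beside IFIT3 in OE.

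The gene sums above hide a second pattern, in which counts of IFIT1 and IFIT3 sat on different transcripts in different libraries. All 252 IFIT1 counts of the first vector control library and all 618 of the first OE library were on ENST00000371804. All 177 counts of the second vector control library and all 624 of the second OE library were on ENST00000546318. The deposited counts of a library were thus listed on 1 IFIT1 transcript and not the other, and the transcript listed followed the replicate number and not the condition. By counting error only, the 0 counts allow a share of up to 1.69% for the transcript at 0 in the second vector control library and up to 0.481% in the second OE library. Whether that transcript was absent from the cells was not tested, since the transcripts share most of their bases and the counting step is not given.

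For IFIT3, all 790 counts of the first vector control library were on ENST00000371818, which starts upstream. The second vector control library had 415 counts on ENST00000371811 and 346 on ENST00000371818. The share of ENST00000371811 there was 54.5% (95% Wilson interval 50.98% to 58.04%, counting error only). In OE, all 1622 and all 1882 counts were on ENST00000371811, and the 0 counts allow up to 0.185% and 0.159% for ENST00000371818. The IFIT3 start upstream was therefore listed in the vector control libraries and not in OE, and the vector control libraries differed from each other as well. IFIT2 had its counts on ENST00000371826 alone and IFIT5 on ENST00000371795 alone, and a second IFIT5 entry, ENST00000416601, was at 0.

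**Figure D3:**
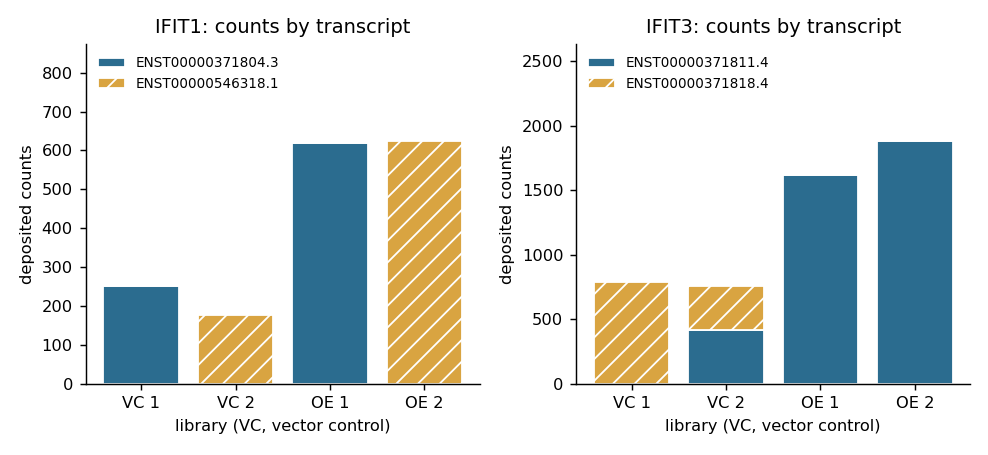
Deposited counts of IFIT1 (left) and IFIT3 (right) in each library, stacked by transcript. IFIT1 counts alternate between transcripts with the replicate number, and IFIT3 counts are on ENST00000371818 in the first vector control library, on both transcripts in the second, and on ENST00000371811 in both OE libraries.

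Tested as transcripts, these values gave a different picture from the gene sums. ENST00000371811 of IFIT3 had a fitted log2 fold change of 2.87 with an SE of 2.98 (edgeR adjusted p = 0.825, 30255 transcripts tested). ENST00000371818 of IFIT3 was at 34.5 and 15.0 CPM in the vector control libraries and at 0 in both OE libraries (adjusted p = 0.159 by edgeR, 1.70e-11 by DESeq2). The IFIT1 transcripts had fitted log2 fold changes of 1.17 (SE 4.09, ENST00000371804) and 1.51 (SE 4.01, ENST00000546318), with adjusted p-values of 0.990 and 0.983 by edgeR. The SEs of 3 of these 4 transcripts exceeded their fold changes. The sign of ENST00000371804 turned without the first OE library (fitted log2 fold change -10.09) and that of ENST00000546318 without the second (-9.51), since each then had no OE counts. The single transcripts of IFIT2 and IFIT5 gave 0.52 (adjusted p = 0.238) and 0.26 (adjusted p = 0.436) by edgeR, close to their gene values. At an unadjusted p under 0.05, 2 of the 6 member transcripts passed (ENST00000371818 lower, ENST00000371826 higher) against 14.6% of all transcripts, either direction. DESeq2 called the same 2 (ENST00000371826 with an adjusted p of 0.000112) against 9.12% of all transcripts, either direction.

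The shift in shares between the conditions was tested for genes with several transcripts (edgeR's diffSpliceDGE). IFIT3 had an unadjusted p of 0.0338 and an adjusted p of 0.273, and IFIT1 had an adjusted p of 1.00 (0.958 unadjusted). Of 6408 genes tested, 13.7% had an unadjusted p under 0.05. A shift of IFIT3 shares with the condition was thus not called.

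To place these shifts, the distance between libraries was taken as the summed absolute differences in transcript shares divided by 2, from 0 for equal shares to 1 for none in common, over 8714 genes with at least 2 transcripts and at least 100 counts in every library. The median gene had a distance of 0.0200 between the vector control libraries and 0.0220 between the OE libraries. IFIT1 was at 1 in both pairs of replicates, which 3.51% and 3.48% of genes reached, and at 0 between libraries with the same replicate number. IFIT3 was at 0.545 between the vector control libraries, which 12.7% of genes reached, at 0 between the OE libraries, and at 1 between the first vector control library and either OE library, which 3.48% and 3.44% of genes reached. From the second vector control library, IFIT3 was at 0.455 to either OE library, less than its distance to its own replicate.

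The leading transcript, the one with most counts, differed between the vector control libraries in 14.8% of genes, IFIT1 and IFIT3 among them. It differed between the OE libraries in 15% of genes, IFIT1 among them. It followed the condition, equal within and different between conditions, in 2.39% of genes, and in neither IFIT1 nor IFIT3. It followed the replicate number in 2.11% of genes, IFIT1 among them. Of all transcripts with at least 100 counts in 1 vector control library, 14.4% had 0 counts in the other, and 3 of the 6 IFIT transcripts were among these. In OE the value was 14.1%, with 2 of 5 IFIT transcripts among them. Switches of this kind were therefore found across the table between replicates of 1 condition as well as between conditions. A distance of at least 0.5 was reached in 13.4% of genes in each pair of replicates and in 13.0% to 13.8% of genes between conditions.

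**Figure D4:**
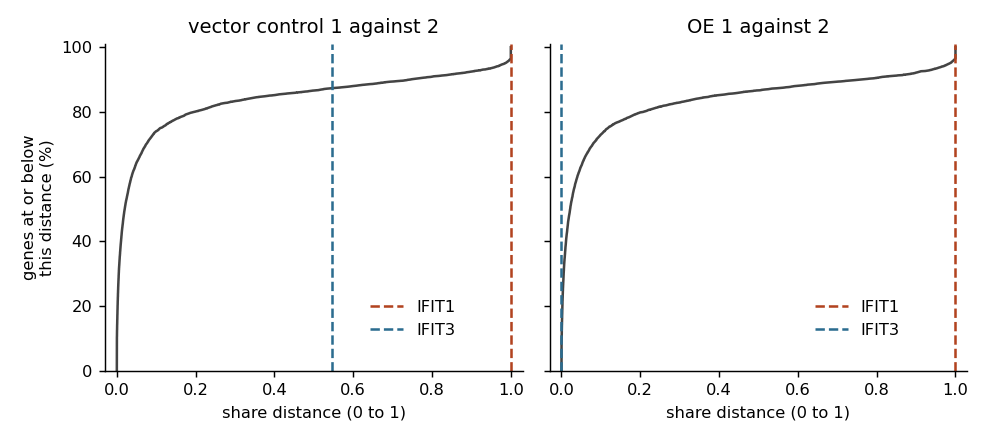
Cumulative percent of 8714 genes by the distance between the transcript shares of 2 libraries of 1 condition (0, equal shares, to 1, none in common), for the vector control (left) and OE (right). Dashed lines mark IFIT1 at 1 in both panels and IFIT3 at 0.545 in the vector control and at 0 in OE.

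Reads that fit more than 1 gene could also move gene sums. Of the 50-base windows of the IFIT2 and IFIT5 transcripts, 0 occurred in a transcript of another gene. IFIT1 shared 54 of its 4253 windows in ENST00000371804 (1.27%) with 6 other genes, 38 of them with IFIT1B, which was at 0, or IFIT6P. IFIT3 shared 4.02% of the windows of ENST00000371818 with 231 other genes and 0 with another IFIT gene. No exon of another gene in the lifted GENCODE annotation overlapped the IFIT transcripts that had counts. Further annotated transcripts of IFIT2 and IFIT3 overlapped exons of LIPA, on the opposite strand, by 65 and 94 bases. LIPA, the lysosomal acid lipase gene beside IFIT2, had 2520 and 2456 counts with the empty vector and 2372 and 2855 with OE, with a log2 fold change of -0.14 (adjusted p = 0.401 by edgeR). RP11-149I23.3 overlapped annotated IFIT2 exons by 524 bases on the same strand and had 13, 13, 23 and 9 counts in the 4 libraries, few beside those of IFIT2. The counting of reads that fit several features is not given in the sources used here.

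The neighbourhood of the cluster was examined next. Of 9 genes around it, 8 were tested, 1 was higher and 1 lower at an unadjusted p under 0.05 (all genes, 10.1% higher and 10.7% lower), and 4 had both OE libraries below both vector control libraries (all genes, 27.6%). Their median log2 fold change was -0.23, beside 0.75 for the 4 IFIT genes and 0.01 for all genes tested. The higher one was FAS, the death receptor gene, with 100 and 168 counts with the empty vector and 1113 and 1369 with OE. Its log2 fold change of 3.0 (SE 0.302, adjusted p = 0.0637 by edgeR, 7.40e-23 by DESeq2) was larger than that of any IFIT gene. The lower one was ACTA2, a smooth muscle actin gene, with a log2 fold change of -0.70 (adjusted p = 0.186 by edgeR, 0.0118 by DESeq2). Both were named after their values were seen.

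The members were next set beside 35 other interferon-stimulated genes, of which 34 were tested. In OE, 23 were higher and 0 lower at an unadjusted p under 0.05 (all genes, 10.1% higher), and 30 had both OE libraries above both vector control libraries (all genes, 27.8%). The median log2 fold change of the 34 was 0.83. XAF1, which promotes apoptosis, had a log2 fold change of 2.57 (SE 0.149). IFI6, an interferon-induced membrane protein, had one of 2.24 (SE 0.136), and OAS3, a sensor of double-stranded RNA that makes oligoadenylates, had one of 1.18 (SE 0.112). The antiviral enzyme viperin (RSAD2) and the neighbouring nucleotide kinase gene CMPK2 had log2 fold changes of 0.96 (SE 0.122) and 0.92 (SE 0.120). These 5 had the smallest unadjusted p-values of the list, and XAF1 and IFI6 had adjusted p-values of 0.0376 each by edgeR. The IFIT genes lay within this range, since 9 of the 34 had a larger log2 fold change than IFIT1, 13 than IFIT3, 19 than IFIT2 and 27 than IFIT5. The 2 genes of the list with fold changes below 0 were UBE2L6 and LY6E, named after their values were seen, and they were low in the first OE library alone. UBE2L6 had 1899 and 1836 counts with the empty vector and 141 and 2472 with OE. LY6E had 478 and 639 counts with the empty vector and 24 and 856 with OE.

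**Figure D5:**
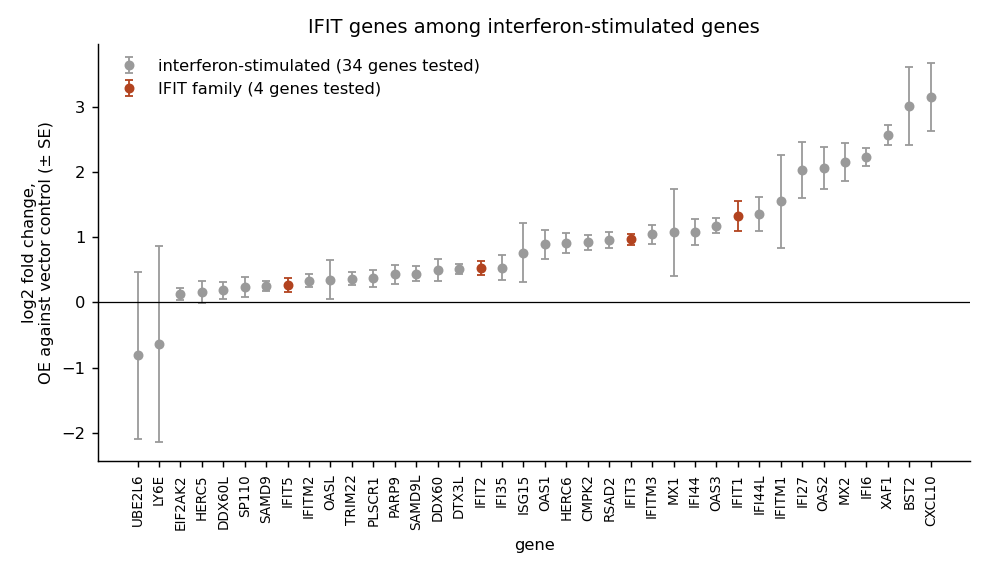
Log2 fold change (OE against vector control, with SE from edgeR) of 34 interferon-stimulated genes in grey and 4 IFIT genes in red, ordered by size. IFIT5 stands at 0.27, with 27 of the 34 above it, and IFIT1 at 1.33, with 9 of the 34 above it. UBE2L6 and LY6E are below 0 with wide errors.

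The genes of that list whose pattern over the 4 libraries was nearest to each member were found by the root mean square distance of log2 CPM centred over the libraries. For IFIT3 they were CMPK2 (0.0416), RSAD2 (0.0673) and HERC6 (0.120), and 15, 51 and 220 of all 20528 genes lay at least as close. For IFIT1 they were IFI44L (0.106), MX2 (0.149) and OAS2 (0.193), with 16, 51 and 143 genes as close. For IFIT2 they were DTX3L (0.0651), PLSCR1 (0.0816) and TRIM22 (0.0854), with 269, 487 and 537 genes as close. For IFIT5 they were SAMD9 (0.0579), HERC5 (0.0764) and PLSCR1 (0.0811), with 390, 850 and 982 genes as close. Between members, IFIT2 and IFIT5 were nearest (0.146) and IFIT1 and IFIT5 farthest (0.539). IFIT3 was thus nearer to CMPK2 and RSAD2 than to any IFIT gene. That comparison favours the list, which holds more genes than the family. The log2 fold changes of IFIT3 (0.97), RSAD2 (0.96) and CMPK2 (0.92) were also close, and the distance partly restates them. These distances rest on 4 libraries and are a description.

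Genes that act before and beside the family were examined next. STAT2, a subunit of ISGF3, was at 104 and 108 CPM in the vector control and 127 and 130 CPM in OE. Its log2 fold change was 0.28 (SE 0.0733, adjusted p = 0.169 by edgeR, 0.000191 by DESeq2), below the 0.5 threshold. IRF9, the subunit that gives ISGF3 its DNA specificity, had 24 and 21 counts with the empty vector and 5 and 8 with OE. Its log2 fold change was -1.99 (SE 0.417, adjusted p = 0.128 by edgeR, 0.0115 by DESeq2). That direction is uncertain, because the gene ENSG00000259529 shares 1544 bases of exons with IRF9 on the same strand and held 585 and 646 counts with the empty vector and 834 and 889 with OE. The sum of both was 26.2 and 28.4 CPM in the vector control and 33.4 and 31.0 CPM in OE, the opposite order.

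Of 11 genes for RNA sensing and interferon induction, 9 were tested, 1 was higher and 2 lower at an unadjusted p under 0.05, beside 10.1% and 10.7% of all genes, and the median log2 fold change was -0.13. IFNB1, the gene of interferon beta, had 0 and 2 counts with the empty vector and 13 and 0 with OE, and was named after its values were seen. The conditions overlapped, and the levels were too low to be tested. Of 14 genes for cap methylation, which sets what IFIT1 can bind, and for translation initiation, where IFIT proteins bind the factor eIF3, 12 were tested and 0 were higher or lower at an unadjusted p under 0.05 by edgeR, beside 20.8% of all genes in either direction. DESeq2 called 0 of them as well. The median log2 fold change of the 12 was 0.08.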

How the data were processed

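Libraries were assigned to conditions, and numbered, by their titles and treatment labels. The reads were trimmed with Trimmomatic and mapped to hg19 with Bowtie2 by the authors, who deposited whole-number counts per Ensembl transcript without normalization. The processing notes of the submitters also name Picard 2.21.6 and StringTie 2.1.6. The counting step, its annotation and its use of strand are not given in the sources used here.

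Transcript counts were added up within each gene. The libraries held from 23785164 to 28307591 counts. Genes (20528) and transcripts (30255) kept by filterByExpr were scaled by TMM and tested with edgeR 4.0.16 in R 4.3.3 (quasi-likelihood test, 2 libraries against 2, Benjamini-Hochberg adjustment over all of them). SE is the log2 fold change divided by the root of the F statistic. DESeq2 1.42.0 and limma-voom (limma 3.58.1) were alternatives, since the study's methods name DESeq2. Likeness used log2 CPM with 0.5 added. Intervals are 95% Wilson intervals (scipy 1.17.1), and 0 counts were taken to allow up to 3, for counting error only. The scripts were tested on simulated data with 200 changed genes.

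Genes named are all members, their transcripts with a count, the 5 interferon-stimulated genes with the smallest unadjusted p, STAT2, IRF9, genes with overlapping exons, and the 3 nearest genes per member. Other genes are named as controls, markers or, where so stated, after their values were seen. The members and lists were chosen with earlier results of these data known. Structures came from the GENCODE annotation lifted to GRCh37, which lacks ENST00000416601, and promoters from RefSeq. The promoter of IFIT2 was not used here. Some results covered by the rule for named genes are not reported here.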

Additional observations from a re-analysis of the deposited data

How the results depend on the processing

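IFIT1, IFIT2, IFIT3 and IFIT5, the members with counts, were each higher in OE under all 12 alternatives to the edgeR fit, and the side of the threshold changed only with DESeq2, which called IFIT1 (log2 fold change 1.33), IFIT2 (0.52) and IFIT3 (0.97) and not IFIT5. The cause of that difference between tools was not tested. The number of genes called went from 0 to 1800 with DESeq2 (TMM replaced by size factors), to 9 with a minimum of 1 count in total and to 1 with the leading transcript in place of the sum, and that of transcripts from 0 to 2759 with DESeq2. It was 0 with limma-voom, where IFIT3 had an adjusted p of 0.0412. With the leading transcript the log2 fold change of IFIT3 was 2.87 (adjusted p = 0.706). Leaving out each library in turn gave log2 fold changes of 1.09 to 1.61 for IFIT1, 0.49 to 0.55 for IFIT2, 0.93 to 1.00 for IFIT3 and 0.18 to 0.35 for IFIT5, with adjusted p-values from 0.162 to 0.495, where the lone library of a condition is assumed to vary like the others, and 0 genes were called. For single transcripts these fits ran from -10.09 to 11.31 for ENST00000371804, from -9.51 to 11.12 for ENST00000546318 and from 1.87 to 13.71 for ENST00000371811. Values past 9 in size there are against a condition at 0 and depend on the fit's prior count. With a replicate block, IFIT1 was at 1.35, IFIT2 at 0.52, IFIT3 at 0.97 and IFIT5 at 0.27, 0 genes were called, and the adjusted p-values were from 0.296 to 0.431. The labels do not say that a replicate number marks a shared culture, and the deviations of same-numbered libraries correlated at -0.015, so the numbers were not taken as a pairing. With at least 50 counts in every library the leading transcript differed between replicates in 15.7% of genes in both conditions, and with at least 200 counts in 13.5% (vector control) and 13.7% (OE). Of the detected members, IFIT1 had the lowest count in a library (177), and the 0 counts of IFIT1B leave its level known only as an upper limit.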
